A study of Mus musculus with 8 samples.

Results

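Hearts of mice given the protein nanocage iFTn-R4 after ischemia-reperfusion were compared with hearts of mice given PBS (phosphate-buffered saline) after the same injury. The comparison is between 4 of the 8 libraries of the series, 2 of iFTn-R4 and 2 of PBS, which is all libraries that carry these labels. It covers 16547 genes with values in both deposited tables, matched by gene ID, and 13953 of them had enough counts to be tested. Every group had ischemia-reperfusion, in which the blood supply of the heart muscle is cut and then restored, and there is no uninjured group here. iFTn-R4 was given as 2 doses of 2.5 mg/kg protein on alternate days, PBS on the same schedule, and RNA was taken from the injured heart tissue after 3 days. The nanocages iFTn-M4 and iFTn-MR4, with the same dose and schedule, are compared with iFTn-R4 where this is said. Their libraries are also in the fit of iFTn-R4 against PBS. There they help to set the filter on low counts, the length correction given below and the spread of each gene. The series title describes such cages as nanozymes, enzyme-like particles meant to remove superoxide inside cells, and the labels do not say what the letters M and R stand for. Strain, sex and age of the mice are not in the labels, and neither is a statement that a group's libraries come from different animals. A p-value here therefore covers only the scatter of these libraries, which may be technical.

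PBS was deposited in a table of its own and the nanocages in another. Group and table therefore cannot be told apart in any value that sets iFTn-R4 against PBS. For that reason iFTn-R4 was also set against the mean of iFTn-M4 and iFTn-MR4, which share its table. Those values stand beside the first, and both comparisons share the iFTn-R4 libraries.

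Restored blood flow brings oxygen back to starved muscle, and the superoxide made at that moment damages mitochondria, membranes and DNA. Injured cells release nucleic acids and proteins that switch on interferon and chemokine genes, and neutrophils and monocytes enter the tissue in the first days. Surviving cardiomyocytes, the contracting cells, switch on genes of stretched or failing muscle (natriuretic peptides, fetal contractile proteins), make chaperones that refold damaged proteins, and burn more glucose and less fat. Fibroblasts divide, turn into matrix-producing cells and lay down a scar. The results are ordered along that path, from the muscle through its fuels and its protein quality control to immune genes, matrix and vessels.

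The 4 libraries held 14742922 to 15729385 expected counts, and 15795 to 16047 genes had at least 1 count in a library. Levels of single genes are CPM (counts scaled to TMM-adjusted library sizes, with no length correction). Summed levels of lists and the floor are scaled to total counts without TMM, so they are on a slightly different scale. With 3 counts as the floor a gene at 0 lies below 0.191 to 0.204 CPM. Fold changes are log2 values from edgeR after the length correction given below, ± their standard error, with 2 libraries a group, and they can differ in size or sign from the ratio of the CPM. A gene rose or fell where its Benjamini-Hochberg adjusted p was under 0.05. The summed level of 8 cardiomyocyte markers, which mark the labelled tissue, was 35063 and 34525 CPM in PBS and 34619.6 and 34516 CPM in iFTn-R4, and lung and thymus markers stayed under 0.3 CPM. The 2 iFTn-R4 libraries differed from each other more than those of any other group, by 15.4 times the counting variance against 6.95 times for PBS. An expected count that is not whole holds reads divided between genes, and such genes are given as having shared reads. In bulk tissue, fewer cells of a type and less RNA per cell cannot be told apart.

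Without a correction, the fold change followed transcript length. Genes in the shortest quintile, with effective lengths of 24 to 1382 bases, had a median log2 fold change of -0.26, and the median of the longest quintile was 0.29. The Spearman correlation of fold change with length was 0.50 across genes, which are not independent replicates, and -0.02 after a spline of each library's counts on length was entered as an offset. Against the other nanocages it was -0.02 with no correction at all. The offset was therefore part of the fit for every fold change given here. With it 1952 genes passed and without it 4096, and 36.7% of those 4096 passed in the same direction with it.

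**Figure D1:**
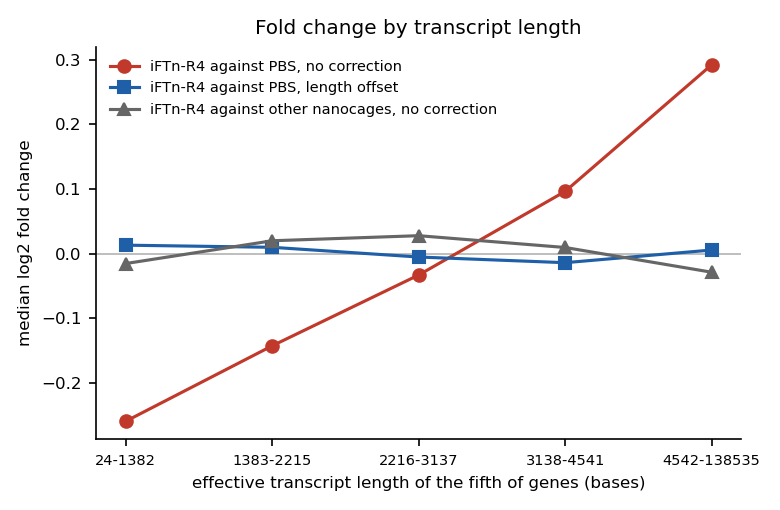
Median log2 fold change (y axis) in quintiles of the tested genes by effective transcript length in bases (x axis), for iFTn-R4 against PBS without and with the length offset and for iFTn-R4 against the other nanocages. The uncorrected line runs from -0.26 to 0.29, and the others stay near 0.

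With the length offset 873 genes rose and 1079 fell in iFTn-R4 against PBS, which is 6.26% and 7.73% of the 13953 tested. Scaled by library size alone, 1136 rose and 825 fell, and in limma on log2(TPM + 1), where the median of all genes stood at 0.20, 4503 rose and 660 fell. The change was over 2-fold for 148 that rose and 90 that fell. The median log2 fold change of all tested genes was 0.00, with quartiles of -0.18 and 0.20, and list medians below are read against it. Counts of list members that rose or fell are read against the 6.26% and 7.73% above. Of the genes that passed, 125 rose and 214 fell in each of the 8 fits that leave out 1 library. The calls together numbered 582 without PBS replicate 1, 588 without PBS replicate 2, 1300 without iFTn-R4 replicate 2 and 535 in a fit of the 4 libraries alone. Against the mean of iFTn-M4 and iFTn-MR4, within 1 table, 1794 genes rose (12.9%) and 1429 fell (10.2%). Genes were named by a rule, and those of its genes with calls in every leave-one-out fit were preferred, once their values were known.

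**Figure D2:**
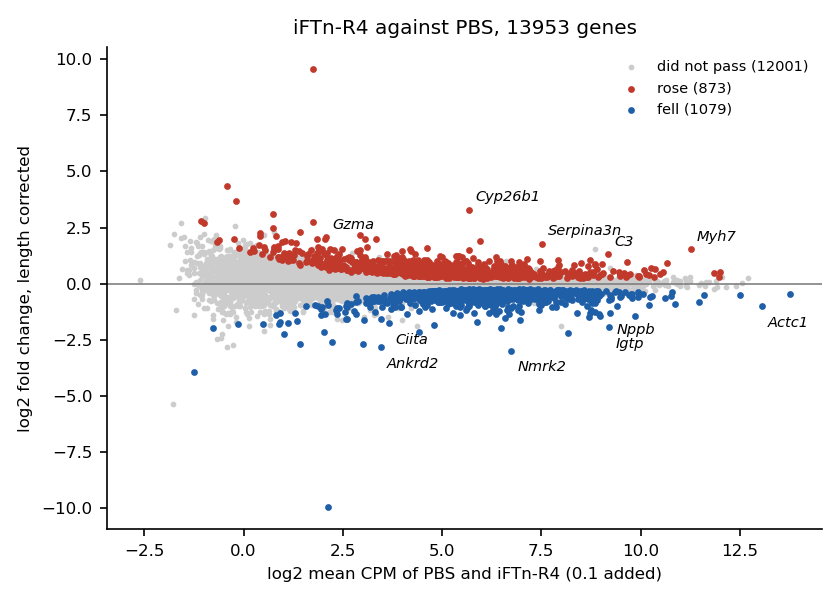
Length-corrected log2 fold change of iFTn-R4 against PBS (y axis) by log2 mean CPM (x axis) for 13953 genes, with those that rose in red and those that fell in blue. The points near the top and bottom edges are Sprr2a1, listed at 0 in both PBS libraries, and Entpd4, listed at 0 in both iFTn-R4 libraries, whose reads are shared with other genes.

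The gene with the largest fall by the naming rule was Nmrk2 (gene ID 69564, chr10:81198170-81202265 on GRCm38.p6), a muscle kinase that makes NAD from nicotinamide riboside. Nmrk2 stood at 234 and 151 CPM in PBS and 26.9 and 14.9 CPM in iFTn-R4 (log2 fold change -2.98 ± 0.28, edgeR adjusted p = 0.000706). Next was Ankrd2 (gene ID 56642, chr19:42035917-42045111), a stretch-responsive protein of the muscle sarcomere, at 14.5 and 24.5 CPM in PBS and 2.44 and 1.99 CPM in iFTn-R4 (log2 fold change -2.83 ± 0.28, edgeR adjusted p = 0.000785). The naming rule admits here only genes whose PBS and iFTn-R4 libraries do not overlap, which held for 64.6% of all tested genes. Nmrk2 was more scattered in iFTn-R4 than Ankrd2. The third was Alox15, a lipoxygenase of macrophages and eosinophils, at 19.9 and 7.34 CPM in PBS and 2.38 and 2.19 CPM in iFTn-R4 (log2 fold change -2.67 ± 0.49, edgeR adjusted p = 0.00926). Bdh1, which converts ketone bodies, was at 29.3 and 56.8 CPM in PBS and 9.5 and 14.7 CPM in iFTn-R4 (log2 fold change -1.83 ± 0.31, edgeR adjusted p = 0.00754). Egln3, the oxygen-sensing prolyl hydroxylase that hypoxia itself induces, was at 215 and 168 CPM in PBS and 62.4 and 56.1 CPM in iFTn-R4 (log2 fold change -1.63 ± 0.15, edgeR adjusted p = 0.000706). The other falls of this set were Ccl24 (-2.59 ± 0.69), a chemokine for eosinophils, Ido1 (-2.13 ± 0.42), an interferon-induced enzyme that breaks down tryptophan, Ciita, Cxcl9, Car9, Cxcl3 and Socs1, which are given with their groups. In Alox15 and Ccl24 the PBS libraries lay further apart in CPM than the lower of them lay from either iFTn-R4 library, and in Ido1 the iFTn-R4 libraries stood at 0.625 and 1.99 CPM. By edgeR, the fit lost its calls with 1 library left out for Ccl24 (each but PBS replicate 2, adjusted p = 0.0512 to 0.262) and Ido1 (PBS replicate 1, adjusted p = 0.0736). A single library also moved by over 1.5-fold the log2 fold change of Alox15 (-1.78 without PBS replicate 1), Ccl24 (-1.08 without PBS replicate 1 and -3.31 without PBS replicate 2) and Ido1 (-1.52 without iFTn-R4 replicate 1 and -3.16 without iFTn-R4 replicate 2). Further calls ended in a fit of the 4 libraries alone for Ccl24 and Ido1.

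The largest rise was that of Cyp26b1 (gene ID 232174, chr6:84571414-84593908), the enzyme that clears retinoic acid, at 9.29 and 7.47 CPM in PBS and 164 and 24.7 CPM in iFTn-R4 (log2 fold change 3.29 ± 0.78, edgeR adjusted p = 0.0238). Its iFTn-R4 libraries differed far more than its PBS libraries did. That the smaller of the 2 was above both PBS libraries is required by the naming rule. Gzma (gene ID 14938, chr13:113093824-113100981), granzyme A of cytotoxic lymphocytes, stood at 1.58 and 2.18 CPM in PBS and 7.38 and 5.37 CPM in iFTn-R4 (log2 fold change 2.08 ± 0.28, edgeR adjusted p = 0.00251). Adh1, an alcohol dehydrogenase that also oxidises retinol, was at 4.55 and 4.76 CPM in PBS and 12.6 and 18.2 CPM in iFTn-R4 (log2 fold change 1.98 ± 0.29, edgeR adjusted p = 0.00395). Both genes were low in PBS, and the naming rule required each iFTn-R4 library to be higher. Serpina3n, a secreted protease inhibitor induced in inflamed tissue, was at 70.4 and 108 CPM in PBS and 256 and 298 CPM in iFTn-R4 (log2 fold change 1.78 ± 0.17, edgeR adjusted p = 0.000706). The other rises of the set were Lvrn (2.75 ± 0.57), an aminopeptidase, Myoc (2.17 ± 0.40), myocilin, Cngb3 (1.98 ± 0.35), a subunit of a cyclic nucleotide channel, Mdk (1.62 ± 0.39), the growth factor midkine, Kcnv2 (1.55 ± 0.26), a potassium channel subunit, Col11a1 and Timp4. Of the rises named here all but Serpina3n and Cyp26b1 stayed under 40 CPM in every PBS and iFTn-R4 library. With 1 library left out, edgeR no longer called Cyp26b1 (PBS replicate 1, PBS replicate 2 and iFTn-R4 replicate 1, adjusted p = 0.0613 to 0.128), Lvrn (PBS replicate 2 and iFTn-R4 replicate 2, adjusted p = 0.0508 to 0.0987), Myoc (PBS replicate 1, adjusted p = 0.0723), Cngb3 (PBS replicate 1, adjusted p = 0.0625), Mdk (PBS replicate 1, PBS replicate 2 and iFTn-R4 replicate 1, adjusted p = 0.0602 to 0.14) and Kcnv2 (PBS replicate 2, adjusted p = 0.0535). The size moved by over 1.5-fold for Cyp26b1 (1.37 without iFTn-R4 replicate 1 and 4.08 without iFTn-R4 replicate 2), Lvrn (3.69 without PBS replicate 1 and 1.85 without iFTn-R4 replicate 2) and Mdk (1.0 without iFTn-R4 replicate 1). Of the other settings, calls ended in a fit of the 4 libraries alone for Cyp26b1, Lvrn and Mdk.

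**Figure D3:**
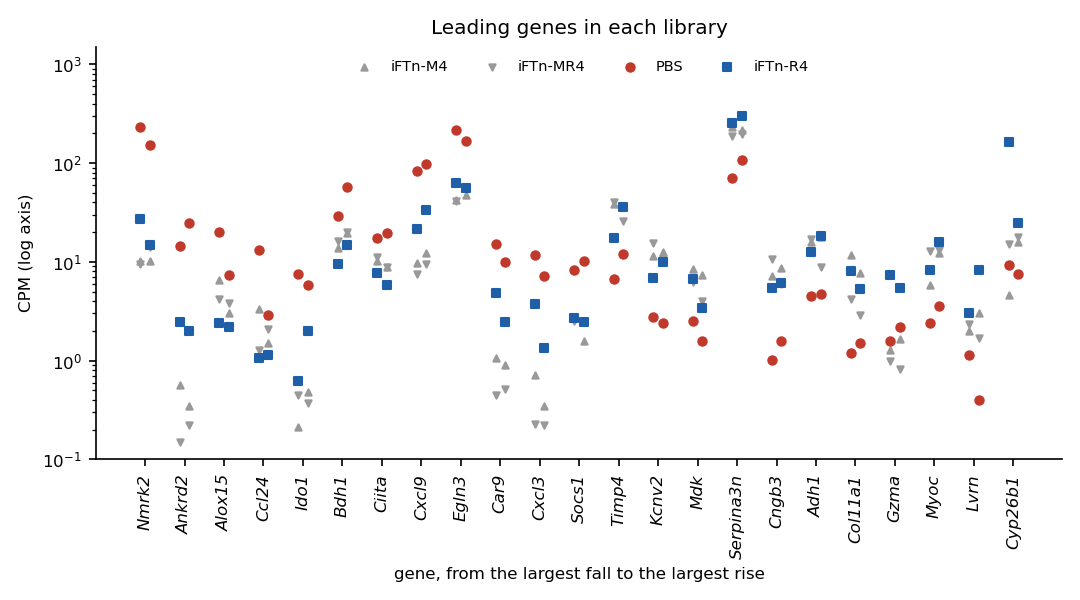
CPM (log axis) of the 12 genes with the largest falls and 11 of the 12 with the largest rises by the naming rule, 1 point per library for PBS, iFTn-R4 and the other nanocages. For each gene the PBS and iFTn-R4 libraries do not overlap, which the rule required and which held for 64.6% of all tested genes.

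Genes of the stretched or fetal heart fell as a group with exceptions. Of 18 tested members 12 fell and 2 rose, with a median log2 fold change of -0.74 against 0.00 for all genes. Nppb, which encodes the natriuretic peptide used as a clinical marker of wall stress, stood at 841 and 983 CPM in PBS and 268 and 317 CPM in iFTn-R4 (log2 fold change -1.32 ± 0.11, edgeR adjusted p = 0.000586). Nppa, its atrial relative, was at 1880.5 and 2270.0 CPM in PBS and 1067 and 1043 CPM in iFTn-R4 (log2 fold change -0.65 ± 0.11, edgeR adjusted p = 0.00757). Each PBS library was above each iFTn-R4 library in both genes, and 64.6% of all tested genes had no overlap in either direction. Fhl1, a stretch sensor of the sarcomere, was at 584 and 667 CPM in PBS and 199 and 221 CPM in iFTn-R4 (log2 fold change -1.47 ± 0.09, edgeR adjusted p = 0.000226). The filament crosslinker Flnc (-0.98 ± 0.09), the actin regulator Enah (-0.81 ± 0.09) and Gdf15 (-0.92 ± 0.19), a hormone made by stressed cells, fell too. Skeletal alpha actin, Acta1, was at 729 and 815 CPM in PBS and 237 and 239.8 CPM in iFTn-R4 (log2 fold change -1.45 ± 0.33, edgeR adjusted p = 0.021). Against this, the fetal beta myosin heavy chain gene Myh7 rose, from 663 and 1542 CPM in PBS to 3514 and 4140.0 CPM in iFTn-R4 (log2 fold change 1.53 ± 0.32, edgeR adjusted p = 0.0161), and so did Clu (0.60 ± 0.10), clusterin. Myh7, like its neighbour Myh6, has shared reads, so its level is uncertain. Ankrd1, a stress-induced partner of titin, was at 4085 and 4401 CPM in PBS and 2868 and 3446 CPM in iFTn-R4 (log2 fold change -0.23 ± 0.10, edgeR adjusted p = 0.157) and did not pass. Without the length offset Ankrd1 fell (log2 fold change -0.43 ± 0.11, edgeR adjusted p = 0.0155). Of the 12 members that fell, 8 did so in every leave-one-out fit. Some edgeR calls ended when 1 library was left out, for Nppa (PBS replicate 2), Gdf15 (PBS replicate 1) and Clu (PBS replicate 1). The call for Acta1 ended without PBS replicate 1, PBS replicate 2 or iFTn-R4 replicate 2. Beyond a 1.5-fold shift were the log2 fold changes of Myh7 (2.26 without PBS replicate 2). Calls were also lost in a fit of the 4 libraries alone for Myh7.

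Set against the other nanocages, the same list pointed the other way, with 13 members that rose, none that fell and a median of 0.67. Nppb stood at 244 and 233 CPM in iFTn-M4 and 191 and 228 CPM in iFTn-MR4, and its log2 fold change of iFTn-R4 against their mean was 0.43 ± 0.09. Nppa was at 939 and 933 CPM in iFTn-M4 and 351 and 284 CPM in iFTn-MR4 and Nmrk2 at 10.3 and 10.1 CPM in iFTn-M4 and 9.6 and 14.1 CPM in iFTn-MR4. The iFTn-R4 libraries lay between PBS and the other nanocages for Nppa and Nppb.

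Among contractile genes of the cardiomyocyte 11 of 24 fell and 2 rose, with a median of -0.14. The list median, relative to all genes, was -0.23 without PBS replicate 1 and -0.29 without iFTn-R4 replicate 2. Actc1, cardiac actin, was at 11951 and 11978 CPM in PBS and 5291 and 4788 CPM in iFTn-R4 (log2 fold change -1.003 ± 0.12, edgeR adjusted p = 0.00143). Csrp3, a sensor of the Z-disc that anchors the sarcomere, was at 1492 and 1675 CPM in PBS and 825 and 862 CPM in iFTn-R4 (log2 fold change -0.59 ± 0.08, edgeR adjusted p = 0.00339), and tropomyosin Tpm1 had a log2 fold change of -0.49 ± 0.09. Xirp2, a protein of the cell junctions, was at 1276 and 1543 CPM in PBS and 939 and 1032 CPM in iFTn-R4 (log2 fold change -0.93 ± 0.11, edgeR adjusted p = 0.00168). In each of these genes both PBS libraries lay above both iFTn-R4 libraries, where 64.6% of all tested genes had no overlap. Myom2, a protein of the sarcomere's M band, rose (0.90 ± 0.15). Myh6, the adult alpha myosin heavy chain and among the most abundant transcripts of the heart, was at 15426 and 14153 CPM in PBS and 14143 and 11477 CPM in iFTn-R4 (log2 fold change -0.47 ± 0.12, edgeR adjusted p = 0.0337). Of the 11 members that fell, 3 did so in every leave-one-out fit, and the list had 5 that fell with PBS replicate 1 left out and 3 with PBS replicate 2 left out. Calls that ended in edgeR when 1 library was left out were those for Tpm1 (PBS replicate 1 and PBS replicate 2, adjusted p = 0.0504 to 0.0525), Myom2 (PBS replicate 1, adjusted p = 0.0523) and Myh6 (each but iFTn-R4 replicate 1, adjusted p = 0.0546 to 0.169). Calls also ended in a fit of the 4 libraries alone for Tpm1 and Myh6, and without the length offset for Myh6.

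Of 15 genes of calcium handling 4 rose and 4 fell. Of the 4 members that rose, 1 did so in every leave-one-out fit, and the list had 1 that rose with PBS replicate 1 left out and 2 with PBS replicate 2, either iFTn-M4 library, iFTn-R4 replicate 2 or either iFTn-MR4 library left out. Of the 4 members that fell, 3 did so in every leave-one-out fit. Jph2, which ties the calcium store to the cell membrane, was at 373 and 368 CPM in PBS and 267 and 229.5 CPM in iFTn-R4 (log2 fold change -0.70 ± 0.10, edgeR adjusted p = 0.00315), and Casq1, a calcium buffer of the store, was at 9.92 and 9.78 CPM in PBS and 4.31 and 3.12 CPM in iFTn-R4 (log2 fold change -1.22 ± 0.22, edgeR adjusted p = 0.00844). Trdn, triadin, rose (0.56 ± 0.09). The calcium pump Atp2a2 stood at 5611 and 5875 CPM in PBS and 8179.8 and 7013 CPM in iFTn-R4 (log2 fold change 0.26 ± 0.11, edgeR adjusted p = 0.146) and did not pass. Without the length offset Atp2a2 rose (log2 fold change 0.40 ± 0.12, edgeR adjusted p = 0.0315). Of 22 ion channel genes 5 rose and 2 fell, where 6.26% of all tested genes rose and 7.73% fell. Of the 5 members that rose, 2 did so in every leave-one-out fit, and the list had 2 that rose with PBS replicate 1 left out and 3 with PBS replicate 2, either iFTn-M4 library or iFTn-R4 replicate 2 left out. Of the 2 members that fell, 1 did so in every leave-one-out fit, and the list had 1 that fell with either PBS library or either iFTn-R4 library left out. Kcnip2 and Kcne1, subunits of potassium channels that end the heartbeat's electrical pulse, stood at 82.8 and 80.8 CPM in PBS and 124 and 137 CPM in iFTn-R4 for the first (log2 fold change 0.79 ± 0.09, edgeR adjusted p = 0.00119) and at 8.47 and 8.53 CPM in PBS and 23.01 and 17.3 CPM in iFTn-R4 for the other (log2 fold change 1.26 ± 0.16, edgeR adjusted p = 0.00178).

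Glycolysis and glucose uptake moved down. Of 25 tested genes 14 fell and 1 rose, with a median log2 fold change of -0.49. Slc2a1, the glucose transporter GLUT1, stood at 122 and 99.3 CPM in PBS and 46.6 and 42.9 CPM in iFTn-R4 (log2 fold change -1.22 ± 0.11, edgeR adjusted p = 0.000623). The phosphofructokinase genes Pfkl, at 258 and 220.1 CPM in PBS and 148 and 143 CPM in iFTn-R4 (log2 fold change -0.79 ± 0.08, edgeR adjusted p = 0.00107), and Pfkp (-0.91 ± 0.08) encode the committed step of glycolysis. The lactate transporter Slc16a1 was at 271 and 299.8 CPM in PBS and 181 and 184 CPM in iFTn-R4 (log2 fold change -0.79 ± 0.08, edgeR adjusted p = 0.000934). In all of these the groups did not overlap, which held for 64.6% of all tested genes. Pfkfb3, which makes the activator of phosphofructokinase, fell (-0.64 ± 0.08), while Pfkfb2, its heart form, rose from 70.5 and 77.1 CPM in PBS to 171 and 171 CPM in iFTn-R4 (log2 fold change 0.98 ± 0.09, edgeR adjusted p = 0.000751). Of the 14 members that fell, 8 did so in every leave-one-out fit. Relative to the other nanocages 7 members rose and 9 fell, with a median of -0.06.

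Targets of the hypoxia response included 6 of 20 that fell and none that rose, with a median of -0.19. Of the 6 members that fell, 5 did so in every leave-one-out fit. Set against all genes, the median of the list was -0.37 without iFTn-R4 replicate 1. Besides Egln3 and Slc2a1 they were Car9, Ero1l, P4ha1 and Pfkfb3. Car9, a carbonic anhydrase of oxygen-poor tissue, stood at 15.1 and 9.91 CPM in PBS and 4.82 and 2.45 CPM in iFTn-R4 (log2 fold change -1.61 ± 0.31, edgeR adjusted p = 0.011). Ero1l, an oxidase of protein folding, was at 104 and 78.4 CPM in PBS and 56.97 and 56.2 CPM in iFTn-R4 (log2 fold change -0.84 ± 0.12, edgeR adjusted p = 0.0041), and P4ha1, a collagen hydroxylase, was at 212 and 202 CPM in PBS and 157 and 146 CPM in iFTn-R4 (log2 fold change -0.56 ± 0.09, edgeR adjusted p = 0.00424). Ero1l and P4ha1 were higher than in the other nanocages, with log2 fold changes of 0.59 ± 0.11 and 0.61 ± 0.07. In leave-one-out fits of edgeR the calls ended for Car9 (PBS replicate 1, adjusted p = 0.08). Of the other settings, calls ended in a fit of the 4 libraries alone for Car9.

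Fat oxidation genes leaned up, and the 2 iFTn-R4 libraries disagreed on how far. Of 30 tested members 7 rose and none fell, with a median of 0.33. Hadha, a subunit of the mitochondrial enzyme that carries out the last steps of fat oxidation, was at 994 and 959 CPM in PBS and 1108 and 1431 CPM in iFTn-R4 (log2 fold change 0.44 ± 0.11, edgeR adjusted p = 0.0344). Cd36, the fatty acid transporter, was at 1184 and 1341 CPM in PBS and 1473 and 2064 CPM in iFTn-R4 (log2 fold change 0.52 ± 0.14, edgeR adjusted p = 0.0396), and Lpl, lipoprotein lipase, at 2642 and 3209 CPM in PBS and 4044 and 4865 CPM in iFTn-R4 (log2 fold change 0.50 ± 0.13, edgeR adjusted p = 0.0354). All 30 members were higher in iFTn-R4 replicate 2 than in replicate 1, by a median of 0.49 on the log2 scale, while the PBS libraries differed by a median of 0.03. Of the 7 members that rose, 0 did so in every leave-one-out fit, and the list had 0 that rose with either PBS library left out, 2 with either iFTn-M4 library or either iFTn-MR4 library left out, 25 with iFTn-R4 replicate 1 left out and 1 with iFTn-R4 replicate 2 left out. Relative to the median of all genes, the list median was 0.56 without iFTn-R4 replicate 1 and 0.09 without iFTn-R4 replicate 2. Ppargc1a, the coactivator that drives mitochondrial gene expression, rose from 51.2 and 56.9 CPM in PBS to 94.8 and 113 CPM in iFTn-R4 (log2 fold change 0.66 ± 0.10, edgeR adjusted p = 0.00418). The 27 genes of the citrate cycle and the 37 of respiratory complex I had medians of 0.06 and 0.07, which turned negative without the length offset and also without iFTn-R4 replicate 2. For Hadha, Cd36 and Lpl the edgeR call ended whichever library was left out, except iFTn-R4 replicate 1. This includes the iFTn-M4 and iFTn-MR4 libraries, which are in the fit but not compared here, so these calls lie close to the threshold. Apart from that, calls ended in a fit of the 4 libraries alone for Hadha, Cd36 and Lpl.

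Chaperones of the heat shock response fell, with 15 of 21 members down, none up and a median of -0.41. The small chaperone Hspb1, which guards the actin skeleton of stressed muscle, stood at 709 and 795 CPM in PBS and 188 and 287 CPM in iFTn-R4 (log2 fold change -1.35 ± 0.16, edgeR adjusted p = 0.00143). The inducible chaperone genes Hspa1a and Hspa1b, neighbouring copies with shared reads, were at 32.04 and 28.2 CPM in PBS and 10.9 and 14.5 CPM in iFTn-R4 (log2 fold change -1.20 ± 0.14, edgeR adjusted p = 0.00143) for the first, with -1.13 ± 0.11 for the other. Hspb6 was at 812 and 803 CPM in PBS and 387 and 450.0 CPM in iFTn-R4 (log2 fold change -0.69 ± 0.09, edgeR adjusted p = 0.00243), and Hspb2 (-0.72 ± 0.09), its relative of striated muscle, fell as well. Neither group overlapped the other in any of these genes, which was also so for 64.6% of all tested genes. Of the 15 members that fell, 6 did so in every leave-one-out fit, and the list had 6 that fell with PBS replicate 2 left out. Within its own table, against the other nanocages, 7 members rose and 2 fell, with a median of 0.14, and Hspb1 had a log2 fold change of 0.64 ± 0.13.

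Some genes of the unfolded protein response, which enlarges the folding capacity of the endoplasmic reticulum, fell as well. Of 22 members 8 fell and none rose, with a median of -0.27. Hspa5, the main chaperone of that compartment, was at 1206 and 1337 CPM in PBS and 866 and 901 CPM in iFTn-R4 (log2 fold change -0.44 ± 0.10, edgeR adjusted p = 0.0235), and the calcium-binding chaperone Calr was at 1136 and 1201 CPM in PBS and 818 and 776 CPM in iFTn-R4 (log2 fold change -0.38 ± 0.08, edgeR adjusted p = 0.0155). The disulphide isomerase Pdia6 had a log2 fold change of -0.35 ± 0.08. Of the 8 members that fell, 0 did so in every leave-one-out fit, and the list had 2 that fell with PBS replicate 1 left out, 0 with PBS replicate 2 left out and 5 with iFTn-R4 replicate 2 left out. Against the other nanocages 16 members rose and none fell. Of 27 proteasome genes 7 fell and none rose, with a median of -0.16, and without the length offset 22 fell. Of the 7 members that fell, 0 did so in every leave-one-out fit, and the list had 3 that fell with PBS replicate 1 or iFTn-R4 replicate 2 left out, 0 with PBS replicate 2 left out and 4 with iFTn-MR4 replicate 1 left out. In the stress response that runs through Atf4, 6 of 22 fell and 1 rose. Of the 6 members that fell, 1 did so in every leave-one-out fit, and the list had 1 that fell with PBS replicate 1 left out and 3 with PBS replicate 2 left out. The 1 member that rose did not do so in every leave-one-out fit, and the list had 0 that rose with either PBS library left out and 3 with iFTn-R4 replicate 1 left out. Cebpb of that list, a transcription factor of acute inflammation, was at 80.9 and 79.2 CPM in PBS and 40.6 and 34.6 CPM in iFTn-R4 (log2 fold change -0.85 ± 0.13, edgeR adjusted p = 0.0041). Calls that ended in edgeR when 1 library was left out were those for Hspa5 (PBS replicate 1 and PBS replicate 2, adjusted p = 0.0583 to 0.138), Calr (PBS replicate 1 and PBS replicate 2, adjusted p = 0.0583 to 0.0937) and Pdia6 (PBS replicate 1, PBS replicate 2 and iFTn-R4 replicate 2, adjusted p = 0.0715 to 0.123). Besides this, calls were lost in a fit of the 4 libraries alone for Hspa5, Calr and Pdia6.

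Some promoters of that list carry the ER stress element, CCAAT and CCACG with 9 bases of any kind between them, on either strand, which the response's transcription factors bind. It was in the 250 bases before the start of 8 of the 19 members found in the RefSeq promoter table (42.1%), against 0.162% of 11090 tested genes, and in 4 of the 7 of these that fell and 4 of the 12 that did not. They are shown because the list was named for this pathway and the letters can be read in them, in capitals, on the gene's strand of GRCm38.p6, with Hspa5 at chr2:34772000-34772068 (plus strand), Calr at chr8:84847050-84847118 (minus strand) and Pdia6 at chr12:17266466-17266534 (plus strand).
Hspa5: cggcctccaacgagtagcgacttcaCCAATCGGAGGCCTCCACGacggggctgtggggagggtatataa
Calr: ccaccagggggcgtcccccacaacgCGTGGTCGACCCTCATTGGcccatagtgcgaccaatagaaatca
Pdia6: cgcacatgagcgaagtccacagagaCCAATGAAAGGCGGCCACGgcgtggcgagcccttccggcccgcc
In Calr the element runs on the opposite strand. A match describes these letters and is not evidence of binding.

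Interferon-induced genes had more members that fell than any other of the 57 lists. None of 39 tested members rose and 28 fell, with a median log2 fold change of -0.76. The GTPase gene Igtp was at 868 and 1040.5 CPM in PBS and 230.1 and 218 CPM in iFTn-R4 (log2 fold change -1.93 ± 0.13, edgeR adjusted p = 0.000307). Its relatives Irgm1, at 454 and 529 CPM in PBS and 177 and 189.6 CPM in iFTn-R4 (log2 fold change -1.28 ± 0.16, edgeR adjusted p = 0.00182), and Iigp1 (-1.42 ± 0.11) fell as well. In each of these genes every PBS library lay above every iFTn-R4 library by at least 1.5-fold. A lack of overlap of any size held for 64.6% of all tested genes. Igtp and Iigp1 share reads with other genes, so their levels are uncertain, and Irgm1 does not. Bst2, tetherin, which holds virus particles on the cell, was at 189.9 and 210.3 CPM in PBS and 80.3 and 97.7 CPM in iFTn-R4 (log2 fold change -0.85 ± 0.09, edgeR adjusted p = 0.000934). Cxcl9, the chemokine that draws T cells, is induced by interferon gamma and was at 83.8 and 97.7 CPM in PBS and 21.4 and 33.3 CPM in iFTn-R4 (log2 fold change -1.70 ± 0.19, edgeR adjusted p = 0.00119). Socs1, the feedback inhibitor of this signal, was at 8.21 and 10.2 CPM in PBS and 2.69 and 2.45 CPM in iFTn-R4 (log2 fold change -1.55 ± 0.25, edgeR adjusted p = 0.00542). Of the 28 members that fell, 12 did so in every leave-one-out fit, and the list had 18 that fell with PBS replicate 1 left out and 12 with PBS replicate 2 left out.

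The interferon-stimulated response element holds a core of GAAA, 2 bases of any kind and GAAA again, searched on either strand. The core was in the 250 bases before the start of 17 of the 29 members found in the promoter table (58.6%), against 3.33% of 11090 tested genes. It was in 14 of 22 matched members that fell and in 3 of 7 that did not. Stretches of 5 of these promoters are shown because their genes lead or typify the group, in lower case on the gene's strand with the core in capitals, and overlapping cores make longer capital runs. They are Isg15 at chr4:156200850-156200909 (minus strand), Ifit1 at chr19:34640779-34640838 (plus strand), Bst2 at chr8:71537562-71537621 (minus strand), Irgm1 at chr11:48871421-48871469 (minus strand) and Socs1 at chr16:10785579-10785638 (minus strand) on GRCm38.p6.
Isg15: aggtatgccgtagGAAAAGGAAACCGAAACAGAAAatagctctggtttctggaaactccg
Ifit1: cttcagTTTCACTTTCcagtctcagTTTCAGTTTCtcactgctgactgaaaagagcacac
Bst2: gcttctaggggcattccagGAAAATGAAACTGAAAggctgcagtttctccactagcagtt
Irgm1: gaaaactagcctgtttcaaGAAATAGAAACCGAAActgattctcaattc
Socs1: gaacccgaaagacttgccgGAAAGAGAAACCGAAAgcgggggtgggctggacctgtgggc
Isg15, a ubiquitin-like protein, was at 83.8 and 109 CPM in PBS and 36.9 and 44.3 CPM in iFTn-R4 (log2 fold change -0.92 ± 0.15, edgeR adjusted p = 0.00672), and Ifit1, which binds foreign RNA, was at 122 and 157 CPM in PBS and 48.8 and 68.4 CPM in iFTn-R4 (log2 fold change -1.18 ± 0.26, edgeR adjusted p = 0.0182). In leave-one-out fits of edgeR the calls ended for Ifit1 (PBS replicate 2, adjusted p = 0.104).

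Within the nanocage table the interferon genes pointed the other way, since iFTn-R4 lay between PBS and the other nanocages. Of the 39 members 38 rose against the mean of iFTn-M4 and iFTn-MR4 and none fell, with a median of 0.95. Igtp was at 44.4 and 33.8 CPM in iFTn-M4 and 28.7 and 24.5 CPM in iFTn-MR4, with a log2 fold change of 2.78 ± 0.12. Socs1 was at 2.79 and 1.59 CPM in iFTn-M4 and 2.49 and 2.52 CPM in iFTn-MR4, with 0.15 ± 0.25. The order of the 4 groups was therefore PBS, iFTn-R4, iFTn-M4 and iFTn-MR4 in the summed level, which was 8594 and 9595 CPM in PBS and 4339 and 5423 CPM in iFTn-R4.

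MHC class I genes, whose products show fragments of the cell's own proteins to T cells, fell with the interferon genes, and several are themselves induced by interferon. Of 16 members 11 fell and none rose, with a median of -0.54. Tap1, which pumps peptides into the endoplasmic reticulum, stood at 219 and 238 CPM in PBS and 114 and 123 CPM in iFTn-R4 (log2 fold change -0.92 ± 0.10, edgeR adjusted p = 0.00133), and Tapbp, which loads them, at 351 and 384 CPM in PBS and 218 and 227 CPM in iFTn-R4 (log2 fold change -0.67 ± 0.08, edgeR adjusted p = 0.00143). Nlrc5, the activator of class I transcription, was at 119 and 131 CPM in PBS and 70.1 and 82.7 CPM in iFTn-R4 (log2 fold change -1.03 ± 0.11, edgeR adjusted p = 0.00108). Psmb10, a subunit of the immunoproteasome, was at 135 and 179 CPM in PBS and 67.4 and 61.7 CPM in iFTn-R4 (log2 fold change -1.01 ± 0.12, edgeR adjusted p = 0.00143), and Psme2, part of its activator cap, had -0.58 ± 0.07. The PBS libraries were above the iFTn-R4 libraries in every gene named here, where 64.6% of all tested genes had no overlap. Of the 11 members that fell, 8 did so in every leave-one-out fit. Within the nanocage table, 14 members rose and none fell, with a median of 0.57. The GAAA core searched in the interferon list was before the start of 2 of 14 class I members matched to a promoter (14.3%). It was there in 3.33% of all tested genes, in 1 of the 9 members that fell and in 1 of the 5 that did not.

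MHC class II genes, used by dendritic cells, B cells and activated macrophages to show captured antigen, had the lowest median of all lists with at least 5 tested genes, -0.95. Of 17 members 9 fell and none rose. Ciita (gene ID 12265, chr16:10480014-10531064), the master activator of the class II genes, stood at 17.5 and 19.4 CPM in PBS and 7.75 and 5.77 CPM in iFTn-R4 (log2 fold change -1.74 ± 0.18, edgeR adjusted p = 0.000928). H2-Ab1, a class II beta chain, was at 104 and 146 CPM in PBS and 52.7 and 27.3 CPM in iFTn-R4 (log2 fold change -1.35 ± 0.25, edgeR adjusted p = 0.0107). H2-Aa, the matching alpha chain, was at 101 and 156 CPM in PBS and 62.6 and 28.2 CPM in iFTn-R4 (log2 fold change -1.19 ± 0.30, edgeR adjusted p = 0.0304), and H2-Eb1 at 80.2 and 135 CPM in PBS and 51.96 and 24.3 CPM in iFTn-R4 (log2 fold change -1.28 ± 0.30, edgeR adjusted p = 0.0243). The libraries of each group differed from each other in the chain genes, with PBS replicate 2 the highest and iFTn-R4 replicate 2 the lowest. The invariant chain Cd74 had -1.01 ± 0.27 and the loading factor H2-DMa -0.94 ± 0.17. Of the 9 members that fell, 1 did so in every leave-one-out fit, and the list had 3 that fell with PBS replicate 2 left out and 5 with iFTn-R4 replicate 2 left out. Calls that ended in edgeR when 1 library was left out were those for H2-Ab1 (PBS replicate 2, adjusted p = 0.0672), H2-Aa (each but PBS replicate 1, iFTn-R4 replicate 1 and iFTn-R4 replicate 2, adjusted p = 0.0534 to 0.168), H2-Eb1 (PBS replicate 2 and iFTn-R4 replicate 2, adjusted p = 0.0539 to 0.147), Cd74 (each but PBS replicate 1 and iFTn-R4 replicate 1, adjusted p = 0.0637 to 0.217) and H2-DMa (PBS replicate 2, adjusted p = 0.0616). The size moved by over 1.5-fold for H2-Aa (-1.90 without iFTn-R4 replicate 1) and H2-Eb1 (-1.94 without iFTn-R4 replicate 1). Calls were also lost in a fit of the 4 libraries alone for H2-Ab1, H2-Aa, H2-Eb1 and Cd74, and in DESeq2 for H2-Aa and Cd74.

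Within the nanocage table class II genes leaned down. Against the mean of iFTn-M4 and iFTn-MR4 5 class II members fell and 2 rose, with a median of -0.63. H2-Eb1 was at 81.6 and 82.2 CPM in iFTn-M4 and 89.4 and 84.9 CPM in iFTn-MR4, with a log2 fold change of -1.15 ± 0.28, and H2-Aa had -0.98 ± 0.27. For H2-Eb1 both iFTn-R4 libraries lay below the 6 others, which was largely set by the naming rule, since it chose this gene on both comparisons. B cell markers, of which 8 were tested, summed to 14.4 and 12.5 CPM in PBS and 10.6 and 8.48 CPM in iFTn-R4, with no member past the threshold. Whether numbers of cells that carry class II differ was not tested. The Y box TGATTGG, searched on either strand, is a promoter element of class II genes bound by NF-Y and was in 6 of 14 members found in the promoter table (42.9%), against 11.1% of all. It is shown in capitals for a pair of chains, with H2-Aa at chr17:34287842-34287898 (minus strand) and H2-Eb1 at chr17:34305781-34305837 (plus strand).
H2-Aa: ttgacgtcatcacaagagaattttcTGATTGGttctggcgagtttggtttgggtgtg
H2-Eb1: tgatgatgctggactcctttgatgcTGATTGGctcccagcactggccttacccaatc

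**Figure D4:**
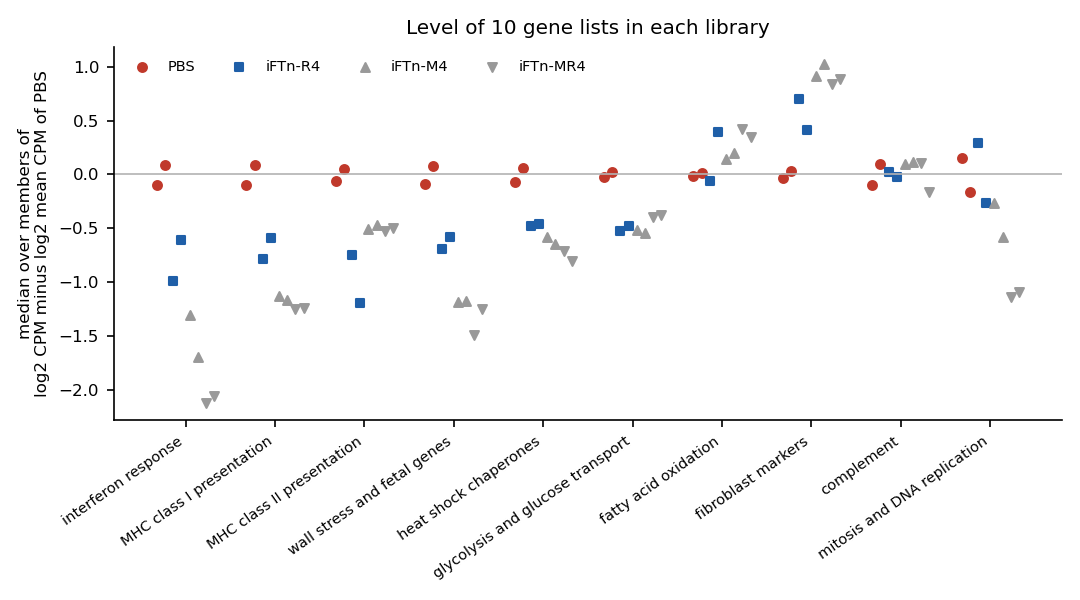
For each library, the median over the members of 10 gene lists of log2 CPM minus the log2 of the mean CPM of PBS (y axis, 0.5 added to each CPM, no length correction). The iFTn-R4 libraries lie below PBS and above the other nanocages for interferon and class I genes, and below all for class II genes.

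Cytokine and chemokine genes included 7 of 33 that fell and 2 that rose, with a median of -0.35. Over all tested genes 7.73% fell and 6.26% rose. Of the 7 members that fell, 1 did so in every leave-one-out fit, and the list had 4 that fell with iFTn-M4 replicate 1 left out, 3 with iFTn-M4 replicate 2 left out and 2 with either iFTn-R4 library or either iFTn-MR4 library left out. Of the 2 members that rose, 0 did so in every leave-one-out fit, and the list had 0 that rose with either PBS library left out and 1 with either iFTn-M4 library, iFTn-R4 replicate 1 or either iFTn-MR4 library left out. The list median, relative to all genes, was -0.19 without PBS replicate 2. Apart from Cxcl9 and Ccl24, Cxcl3, a chemokine for neutrophils, was at 11.6 and 7.27 CPM in PBS and 3.75 and 1.33 CPM in iFTn-R4 (log2 fold change -1.58 ± 0.42, edgeR adjusted p = 0.0349). The main cytokines of early injury did not pass. Il1b stood at 22.9 and 18.3 CPM in PBS and 17.3 and 9.02 CPM in iFTn-R4 (log2 fold change -0.38 ± 0.33, edgeR adjusted p = 0.463). Il6 stood at 2.72 and 8.53 CPM in PBS and 3.25 and 1.26 CPM in iFTn-R4 (log2 fold change -1.0 ± 0.57, edgeR adjusted p = 0.268). Ccl2, which draws monocytes, was at 81.2 and 125 CPM in PBS and 58.5 and 75.6 CPM in iFTn-R4 (log2 fold change -0.29 ± 0.19, edgeR adjusted p = 0.341). The libraries overlapped in Il6 and did not in Il1b and Ccl2, where 64.6% of all tested genes had no overlap. Relative to the other nanocages 18 members of the list rose and 1 fell, with a median of 1.03, and Ccl2 had 2.05 ± 0.18. In leave-one-out fits of edgeR the calls ended for Cxcl3 (each but iFTn-R4 replicate 1, adjusted p = 0.0521 to 0.213). A single library also moved by over 1.5-fold the log2 fold change of Cxcl3 (-2.54 without iFTn-R4 replicate 1). Other settings ended calls, in a fit of the 4 libraries alone for Cxcl3.

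Neutrophil markers, 17 with values and 15 of them tested, summed to 601 and 533 CPM in PBS and 395 and 387 CPM in iFTn-R4. The member that fell was Slfn4, an interferon-induced gene of myeloid cells with shared reads, at 212 and 254 CPM in PBS and 110.2 and 113 CPM in iFTn-R4 (log2 fold change -1.16 ± 0.16, edgeR adjusted p = 0.00322). The member that rose was Ngp, a granule protein, at 0.0632 and 0.0661 CPM in PBS and 1.19 and 1.26 CPM in iFTn-R4, under the floor of 3 counts in PBS. Against the other nanocages 13 of the 15 rose. Among 17 monocyte and macrophage markers 3 fell and 1 rose, with sums of 4308 and 2906 CPM in PBS and 2858 and 3072 CPM in iFTn-R4. Over all tested genes 7.73% fell and 6.26% rose. Of the 3 members that fell, 1 did so in every leave-one-out fit, and the list had 5 that fell with iFTn-R4 replicate 1 left out. The 1 member that rose did not do so in every leave-one-out fit, and the list had 0 that rose with PBS replicate 2 left out and 2 with iFTn-R4 replicate 1 left out. Fcgr1, the high-affinity antibody receptor, was at 101 and 106 CPM in PBS and 59.2 and 59.8 CPM in iFTn-R4 (log2 fold change -0.72 ± 0.10, edgeR adjusted p = 0.00297), and Ccr2, the receptor for Ccl2, at 111 and 99.3 CPM in PBS and 71.6 and 45.05 CPM in iFTn-R4 (log2 fold change -0.91 ± 0.18, edgeR adjusted p = 0.0133). PBS replicate 1 stood above the other 3 libraries in that sum. The part of these cells in the class II and interferon values was not tested. The edgeR call for Ccr2 ended when PBS replicate 1 was left out. Further calls ended in a fit of the 4 libraries alone for Ccr2.

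A few genes of cytotoxic lymphocytes rose, at low levels. Markers of T and NK cells, 20 with values and 14 of them tested, summed to 16.1 and 22.4 CPM in PBS and 46.8 and 27.9 CPM in iFTn-R4. Of the 14 tested 3 rose and none fell, with a median of 0.67. Of the 3 members that rose, 1 did so in every leave-one-out fit, and the list had 1 that rose with PBS replicate 1 left out. Set against all genes, the median of the list was -0.20 without iFTn-R4 replicate 1 and 1.16 without iFTn-R4 replicate 2. The members that rose were the granzymes Gzma and Gzmb and the pore-forming perforin Prf1, tools of cell killing. Gzmb was at 0.569 and 1.39 CPM in PBS and 5.32 and 2.99 CPM in iFTn-R4 (log2 fold change 2.33 ± 0.45, edgeR adjusted p = 0.0115) and Prf1 at 0.442 and 0.859 CPM in PBS and 3.81 and 1.53 CPM in iFTn-R4 (log2 fold change 2.12 ± 0.52, edgeR adjusted p = 0.0276). All 3 were higher in both iFTn-R4 libraries than in either PBS library, at levels of a few CPM. The groups were without overlap in 64.6% of all tested genes. Gzma was also higher than in the other nanocages, which stood at 1.29 and 1.65 CPM in iFTn-M4 and 0.983 and 0.817 CPM in iFTn-MR4, with a log2 fold change of 2.50 ± 0.25. Leaving out a single library ended the edgeR calls for Gzmb (PBS replicate 1, adjusted p = 0.0749) and Prf1 (each but iFTn-R4 replicate 2, iFTn-MR4 replicate 1 and iFTn-MR4 replicate 2, adjusted p = 0.0502 to 0.167). Fold changes moved by over 1.5-fold on the log2 values of Gzmb (3.07 without PBS replicate 2) and Prf1 (1.31 without iFTn-R4 replicate 1). Of the other settings, calls ended in a fit of the 4 libraries alone for Gzmb and Prf1, and in DESeq2 for Prf1.

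Among 20 complement genes 7 rose and 2 fell, with a median of 0.34, where 6.26% of all tested genes rose and 7.73% fell. C3, the central protein of the cascade, stood at 274 and 343 CPM in PBS and 863 and 852 CPM in iFTn-R4 (log2 fold change 1.32 ± 0.11, edgeR adjusted p = 0.000529). The proteases C1s1, at 48.02 and 68.8 CPM in PBS and 114 and 118 CPM in iFTn-R4 (log2 fold change 1.02 ± 0.14, edgeR adjusted p = 0.00251), and C1ra (0.89 ± 0.10) start the classical pathway, and Serping1 (0.73 ± 0.10) restrains it. Each iFTn-R4 library was above each PBS library in these 4 genes, and 64.6% of all tested genes had no overlap in either direction. C1s1 and C1ra share reads with other genes, and C3 and Serping1 do not. Of the 7 members that rose, 5 did so in every leave-one-out fit. Of the 2 members that fell, 0 did so in every leave-one-out fit, and the list had 0 that fell with PBS replicate 1 left out and 1 with either iFTn-M4 library, either iFTn-R4 library or either iFTn-MR4 library left out. Relative to the median of all genes, the list median was 0.12 without iFTn-R4 replicate 1 and 0.10 without iFTn-R4 replicate 2. Compared with the other nanocages the list's median was -0.04, and C3 had -0.16 ± 0.09.

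Fibroblast markers rose. Of 16 tested 10 rose and none fell, with a median of 0.64, and they summed to 9973 and 9407 CPM in PBS and 17253 and 12800.5 CPM in iFTn-R4. Dcn, decorin, a proteoglycan that binds collagen, stood at 539 and 641 CPM in PBS and 978 and 1071 CPM in iFTn-R4 (log2 fold change 0.98 ± 0.10, edgeR adjusted p = 0.000792). Fbln1, a glycoprotein of elastic fibres, was at 83.6 and 97.5 CPM in PBS and 189 and 193 CPM in iFTn-R4 (log2 fold change 1.12 ± 0.11, edgeR adjusted p = 0.000751). Mmp2, a matrix-cutting protease, was at 93.1 and 102 CPM in PBS and 168 and 169 CPM in iFTn-R4 (log2 fold change 0.80 ± 0.10, edgeR adjusted p = 0.00182), and Dpt, dermatopontin, had 0.59 ± 0.08. The groups did not overlap in these genes, nor in 64.6% of all tested genes. Of the 10 members that rose, 6 did so in every leave-one-out fit, and the list had 6 that rose with PBS replicate 1 left out. In the nanocage table none rose and 7 fell, with a median of -0.29.

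In the wider list of matrix proteins 18 of 39 rose and 2 fell, with a median of 0.31. The collagen-binding proteoglycans Lum, at 149 and 158 CPM in PBS and 235 and 209 CPM in iFTn-R4 (log2 fold change 0.69 ± 0.08, edgeR adjusted p = 0.00169), Ogn (0.68 ± 0.08) and Aspn (0.68 ± 0.08) rose together with Sparcl1, a matricellular protein, at 236 and 260.2 CPM in PBS and 469 and 478 CPM in iFTn-R4 (log2 fold change 0.94 ± 0.10, edgeR adjusted p = 0.000999). The 2 that fell were Ccn1 and Ccn2, growth-factor-like proteins induced by stretch, with Ccn2 at 553 and 628 CPM in PBS and 312 and 383 CPM in iFTn-R4 (log2 fold change -0.66 ± 0.11, edgeR adjusted p = 0.00649). Of the 18 members that rose, 9 did so in every leave-one-out fit, and the list had 10 that rose with PBS replicate 1 left out. Of 31 collagen genes 3 rose and none fell, and 8 rose without the length offset. Over all tested genes 6.26% rose with the offset and 13.9% without it. Of the 3 members that rose, 1 did so in every leave-one-out fit, and the list had 6 that rose with iFTn-R4 replicate 2 left out. The collagen median of 0.19 was -0.05 without iFTn-R4 replicate 1 and 0.38 without iFTn-R4 replicate 2, relative to all genes. Col6a6, a chain of the type of collagen that surrounds cells, was at 3.6 and 3.04 CPM in PBS and 13.6 and 10.02 CPM in iFTn-R4 (log2 fold change 1.52 ± 0.18, edgeR adjusted p = 0.00143), with shared reads, and Col11a1 at 1.2 and 1.52 CPM in PBS and 8.07 and 5.31 CPM in iFTn-R4 (log2 fold change 1.98 ± 0.34, edgeR adjusted p = 0.00761). The main scar collagens stood at 2025 and 1883 CPM in PBS and 3538 and 2213 CPM in iFTn-R4 for Col1a1 (log2 fold change 0.30 ± 0.21, edgeR adjusted p = 0.364) and at 3545 and 3354 CPM in PBS and 5829 and 4278 CPM in iFTn-R4 for Col3a1 (log2 fold change 0.32 ± 0.16, edgeR adjusted p = 0.22), and neither passed. Postn, periostin of activated fibroblasts, was at 591 and 569 CPM in PBS and 922 and 725 CPM in iFTn-R4 (log2 fold change 0.50 ± 0.13, edgeR adjusted p = 0.0313). With 1 library left out, edgeR no longer called Col11a1 (PBS replicate 1, adjusted p = 0.0596) and Postn (each but iFTn-R4 replicate 2, iFTn-MR4 replicate 1 and iFTn-MR4 replicate 2, adjusted p = 0.0538 to 0.143). Besides this, calls were lost in a fit of the 4 libraries alone for Ccn2 and Postn.

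Regulators of matrix turnover and clotting included both directions. Adamts1, a secreted protease, was at 147 and 168 CPM in PBS and 117 and 109.5 CPM in iFTn-R4 (log2 fold change -0.66 ± 0.10, edgeR adjusted p = 0.00446). Timp4, a metalloproteinase inhibitor of the heart, was at 6.7 and 12.1 CPM in PBS and 17.6 and 35.96 CPM in iFTn-R4 (log2 fold change 1.54 ± 0.37, edgeR adjusted p = 0.0244). Fstl3, which traps activin, was at 44.2 and 51.9 CPM in PBS and 20.4 and 19.8 CPM in iFTn-R4 (log2 fold change -1.08 ± 0.11, edgeR adjusted p = 0.000854). PBS lay above iFTn-R4 in Adamts1 and Fstl3 and below it in Timp4, without overlap, as in 64.6% of all tested genes. Fstl3 was higher than in the other nanocages, with a log2 fold change of 1.39 ± 0.11. In leave-one-out fits of edgeR the calls ended for Timp4 (PBS replicate 1 and iFTn-R4 replicate 2, adjusted p = 0.1 to 0.15). Fold changes moved by over 1.5-fold on the log2 values of Timp4 (0.94 without iFTn-R4 replicate 2). Calls also ended in a fit of the 4 libraries alone for Timp4.

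Endothelial markers rose in part, with 7 of 16 up, none down and a median of 0.29. Fabp4, a fatty acid carrier of capillaries, was at 338 and 406 CPM in PBS and 494 and 616 CPM in iFTn-R4 (log2 fold change 0.90 ± 0.10, edgeR adjusted p = 0.00131). The junction gene Cdh5 was at 313 and 334 CPM in PBS and 453 and 441 CPM in iFTn-R4 (log2 fold change 0.36 ± 0.08, edgeR adjusted p = 0.0184). The summed markers stood at 3119 and 3339 CPM in PBS and 4183 and 4114 CPM in iFTn-R4. Of the 7 members that rose, 1 did so in every leave-one-out fit, and the list had 1 that rose with PBS replicate 1 left out and 2 with PBS replicate 2 left out. Of 7 lymphatic markers 2 rose and 1 fell, with a median of 0.36, and 0 rose in a fit of the 4 libraries alone. The member that fell was Pdpn, podoplanin, which injury also induces in other cells. It stood at 60.2 and 53.2 CPM in PBS and 33.1 and 26.4 CPM in iFTn-R4 (log2 fold change -0.74 ± 0.12, edgeR adjusted p = 0.00517). Smooth muscle and pericyte markers counted 5 that rose and 1 that fell of 13. Of the 5 members that rose, 0 did so in every leave-one-out fit, and the list had 0 that rose with PBS replicate 1 left out and 3 with PBS replicate 2 left out. The 1 member that fell did not do so in every leave-one-out fit, and the list had 0 that fell with either PBS library or either iFTn-MR4 library left out and 2 with iFTn-R4 replicate 1 left out. Epicardial and mesothelial markers summed to 308 and 209 CPM in PBS and 204 and 121 CPM in iFTn-R4, higher in replicate 1 than in replicate 2 of both groups. The 9 adipocyte markers with values, 4 of them tested, summed to 0.509 and 3.17 CPM in PBS and 13.5 and 1.09 CPM in iFTn-R4. The edgeR call for Cdh5 ended when either PBS library was left out. Other settings ended calls, in a fit of the 4 libraries alone for Cdh5.

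Genes that remove oxidants, the process the nanozymes are named for, included 1 of 28 that rose and 4 that fell, where 14.0% of all tested genes passed, with a median log2 fold change of 0.01. Without the length offset 8 fell and the median was -0.22. Of the 4 members that fell, 0 did so in every leave-one-out fit, and the list had 0 that fell with either PBS library left out, 2 with iFTn-R4 replicate 2 or iFTn-MR4 replicate 2 left out and 1 with iFTn-MR4 replicate 1 left out. The 1 member that rose did not do so in every leave-one-out fit, and the list had 0 that rose with either PBS library left out, 4 with iFTn-R4 replicate 1 left out and 3 with iFTn-R4 replicate 2 left out. Sod2, the superoxide dismutase of mitochondria, stood at 409 and 449.9 CPM in PBS and 322 and 364 CPM in iFTn-R4 (log2 fold change -0.41 ± 0.09, edgeR adjusted p = 0.0218). Sod1, the cytosolic form, stood at 195 and 208 CPM in PBS and 162 and 179 CPM in iFTn-R4 (log2 fold change 0.08 ± 0.08, edgeR adjusted p = 0.505). Sod3, the secreted form, stood at 83.8 and 104 CPM in PBS and 84.2 and 90.4 CPM in iFTn-R4 (log2 fold change 0.05 ± 0.10, edgeR adjusted p = 0.767). Of the 3 dismutases only Sod2 passed. Catalase, Cat, which removes hydrogen peroxide, was at 202 and 214 CPM in PBS and 174 and 271 CPM in iFTn-R4 (log2 fold change 0.18 ± 0.17, edgeR adjusted p = 0.502), and the peroxidase Gpx1 was at 311 and 259 CPM in PBS and 224 and 219 CPM in iFTn-R4 (log2 fold change -0.06 ± 0.10, edgeR adjusted p = 0.717). Thioredoxin, Txn1, and its reductase Txnrd1 had -0.33 ± 0.07 and -0.38 ± 0.10. Nqo1 and Hmox1, which the oxidant-sensing factor Nrf2 induces, did not pass, with Nqo1 at 37.03 and 38.9 CPM in PBS and 36.5 and 47.04 CPM in iFTn-R4 (log2 fold change 0.37 ± 0.11, edgeR adjusted p = 0.0588) and Hmox1 at 315 and 309 CPM in PBS and 296 and 182 CPM in iFTn-R4 (log2 fold change -0.15 ± 0.23, edgeR adjusted p = 0.693). Leaving out a single library ended the edgeR calls for Sod2 (PBS replicate 1, PBS replicate 2 and iFTn-MR4 replicate 1, adjusted p = 0.0503 to 0.134), Txn1 (PBS replicate 1 and PBS replicate 2, adjusted p = 0.0543 to 0.0898) and Txnrd1 (each but iFTn-M4 replicate 1, iFTn-M4 replicate 2 and iFTn-R4 replicate 1, adjusted p = 0.0558 to 0.133). Further calls ended in a fit of the 4 libraries alone for Sod2, Txn1 and Txnrd1, and with scaling by library size alone for Txnrd1.

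The iron store genes Fth1 and Ftl1 encode ferritin, a protein cage that is also widely used to build nanocages. Fth1 stood at 1646 and 1633 CPM in PBS and 1273 and 1640.4 CPM in iFTn-R4 (log2 fold change 0.14 ± 0.11, edgeR adjusted p = 0.411) and Ftl1 at 1718 and 1456 CPM in PBS and 1322 and 1177 CPM in iFTn-R4 (log2 fold change -0.04 ± 0.13, edgeR adjusted p = 0.875), and neither passed. Of 10 NADPH oxidase genes, which make superoxide, Nox4 rose and none fell, where 6.26% of all tested genes rose. Nox4 stood at 2.53 and 2.71 CPM in PBS and 4.82 and 6.7 CPM in iFTn-R4 (log2 fold change 1.05 ± 0.23, edgeR adjusted p = 0.0194), at a low level in every library. The remaining 9 members did not pass. Calls that ended in edgeR when 1 library was left out were those for Nox4 (PBS replicate 1, PBS replicate 2 and iFTn-R4 replicate 2, adjusted p = 0.0847 to 0.11). Of the other settings, calls ended in a fit of the 4 libraries alone for Nox4.

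None of 32 genes of mitosis and DNA replication passed in either direction in edgeR, where 1 had an unadjusted p under 0.05, none passed in DESeq2, and 5 rose in limma on log2(TPM + 1). Their median was 0.12. The list median, relative to all genes, was 0.31 without PBS replicate 1, -0.06 without PBS replicate 2, -0.17 without iFTn-R4 replicate 1 and 0.42 without iFTn-R4 replicate 2. Against the other nanocages 30 of the 32 rose, with a median of 0.87. All 32 were higher in iFTn-R4 replicate 1 than in replicate 2. Cytosolic ribosomal proteins had 2 of 40 that rose, and none that rose and 17 that fell without the length offset. Over all tested genes 6.26% rose with the offset and 15.4% fell without it. Of the 2 members that rose, 0 did so in every leave-one-out fit, and the list had 0 that rose with PBS replicate 1 or iFTn-MR4 replicate 2 left out and 1 with PBS replicate 2, either iFTn-M4 library, iFTn-R4 replicate 1 or iFTn-MR4 replicate 1 left out. Early response genes had 8 of 23 that fell and none that rose, among them Ier3, a survival gene, at 96.9 and 91.1 CPM in PBS and 47.1 and 47.96 CPM in iFTn-R4 (log2 fold change -0.69 ± 0.10, edgeR adjusted p = 0.00403). Of the 8 members that fell, 1 did so in every leave-one-out fit, and the list had 3 that fell with PBS replicate 1 left out and 1 with PBS replicate 2 left out. Targets of p53 had 3 that rose and 2 that fell of 20, where 6.26% of all tested genes rose and 7.73% fell. Sesn1, a stress sensor that restrains growth, was at 90.3 and 85.9 CPM in PBS and 126 and 151 CPM in iFTn-R4 (log2 fold change 0.72 ± 0.09, edgeR adjusted p = 0.00195). The nuclease Aen was at 76.2 and 71.9 CPM in PBS and 49.9 and 48.6 CPM in iFTn-R4 (log2 fold change -0.78 ± 0.07, edgeR adjusted p = 0.000706). Of the 3 members that rose, 1 did so in every leave-one-out fit, and the list had 1 that rose with PBS replicate 2 left out. Of the 2 members that fell, 1 did so in every leave-one-out fit, and the list had 1 that fell with either PBS library or iFTn-R4 replicate 1 left out. Bhlhe41, a clock repressor, fell (-0.84 ± 0.13). Igf2r, which removes the growth factor IGF2, rose from 229 and 234 CPM in PBS to 401 and 443 CPM in iFTn-R4 (log2 fold change 0.50 ± 0.08, edgeR adjusted p = 0.00413).

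**Figure D5:**
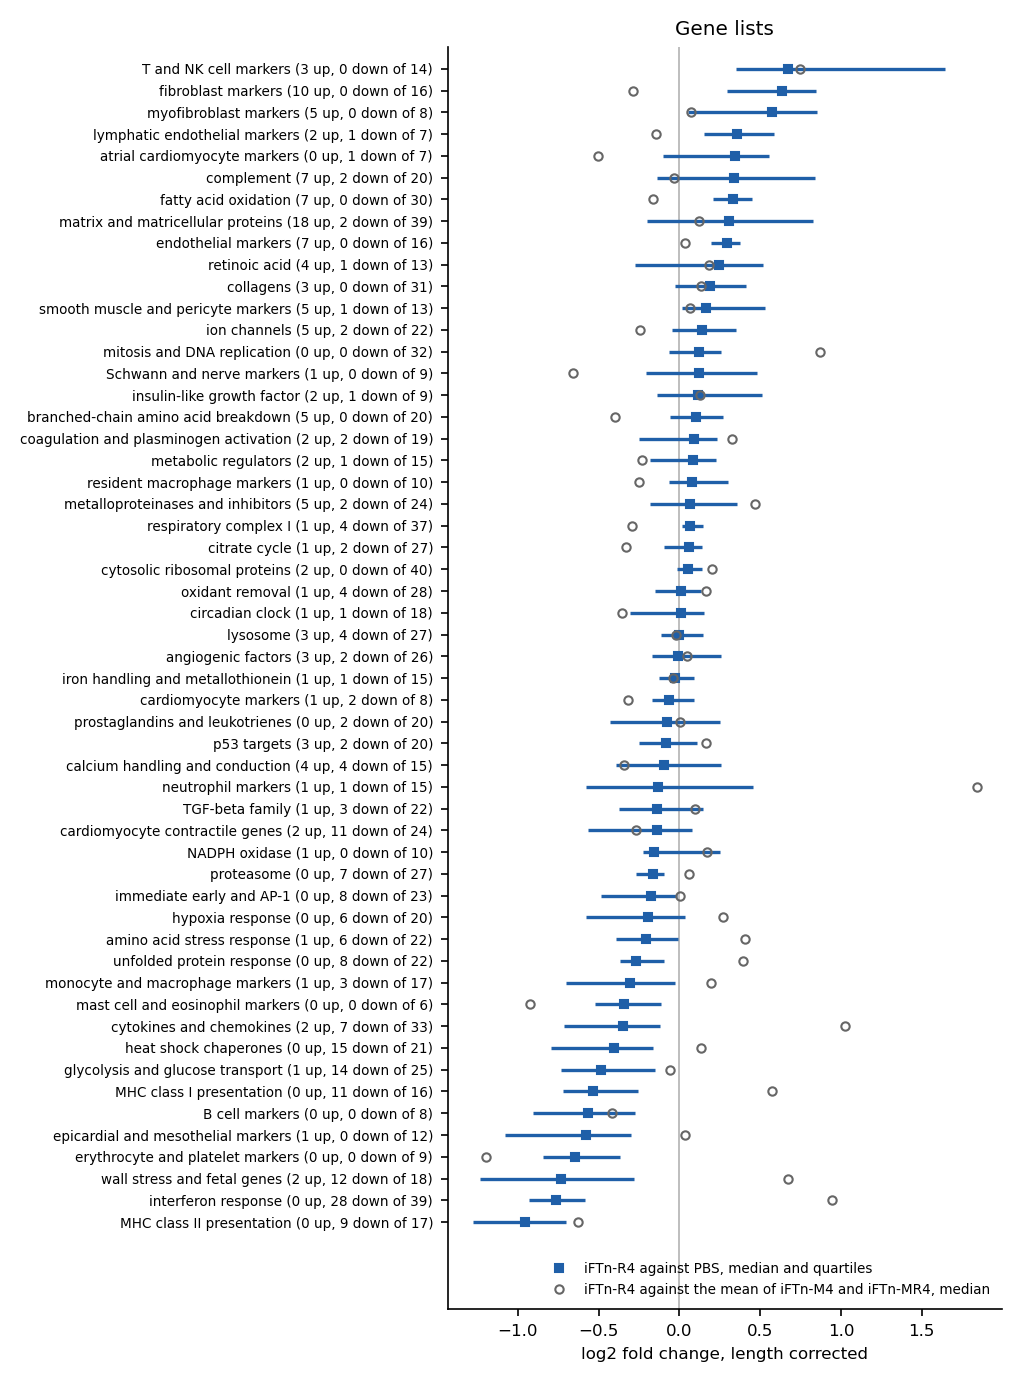
Median length-corrected log2 fold change (squares) and quartiles (lines) of the members of the 54 gene lists with at least 5 tested genes, for iFTn-R4 against PBS, and the median against the mean of the other nanocages (open circles). Labels give how many members rose and fell against PBS. Interferon, class I and wall stress genes lie below 0 against PBS and above 0 against the other nanocages, and class II genes lie below 0 in both.

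Some genes stood out in both comparisons by the naming rule. Ankrd2, Cxcl3, Tnfrsf9, Fosl1, Gzma and Cyp26b1 had the largest positive values against the other nanocages, and Clcn1, Gdf3, H2-Eb1, Klhdc8a, Tuba4a and Tuba8 the largest negative ones. Ankrd2 stood at 0.572 and 0.345 CPM in iFTn-M4 and 0.151 and 0.223 CPM in iFTn-MR4, with a log2 fold change of 2.91 ± 0.42, so iFTn-R4 lay between them and PBS. Fosl1, a transcription factor of the AP-1 family, was at 8.28 and 8.66 CPM in PBS and 3.81 and 2.26 CPM in iFTn-R4 (log2 fold change -1.26 ± 0.26, edgeR adjusted p = 0.0156) and at 0.644 and 0.62 CPM in iFTn-M4 and 0.227 and 0.445 CPM in iFTn-MR4. Tnfrsf9, a costimulatory receptor of T cells, had -1.11 ± 0.31 against PBS and 2.80 ± 0.39 against the other nanocages. Klhdc8a, a protein with kelch repeats, was at 20.03 and 22.6 CPM in PBS and 11.6 and 8.29 CPM in iFTn-R4 (log2 fold change -1.03 ± 0.16, edgeR adjusted p = 0.00469) and at 18.4 and 18.7 CPM in iFTn-M4 and 22.8 and 27.4 CPM in iFTn-MR4. The tubulin genes Tuba8 and Tuba4a encode building blocks of microtubules. Tuba8 was at 167 and 178 CPM in PBS and 79.04 and 66.9 CPM in iFTn-R4 (log2 fold change -0.997 ± 0.16, edgeR adjusted p = 0.00484), below its level in PBS and below the 114 and 122 CPM in iFTn-M4 and 160.4 and 233 CPM in iFTn-MR4. Tuba4a had -1.27 ± 0.27 against PBS and -1.11 ± 0.24 against the other nanocages, and Gdf3, a growth factor of the TGF-beta family, -1.38 ± 0.31 and -1.17 ± 0.29. Tuba8, Klhdc8a and Gdf3 were lower in both iFTn-R4 libraries than in any of the 6 others. This was largely set by the naming rule, which required no overlap with PBS and a call against the mean of the other nanocages. Both comparisons also share the iFTn-R4 libraries. Clcn1, a muscle chloride channel, had 0.89 ± 0.22 and -1.23 ± 0.17. In leave-one-out fits of edgeR the calls ended for Fosl1 (PBS replicate 1, PBS replicate 2 and iFTn-R4 replicate 2, adjusted p = 0.0518 to 0.0807), Tnfrsf9 (each but iFTn-MR4 replicate 1 and iFTn-MR4 replicate 2, adjusted p = 0.0602 to 0.273), Tuba4a (PBS replicate 1 and PBS replicate 2, adjusted p = 0.0575 to 0.0778), Gdf3 (PBS replicate 1, PBS replicate 2 and iFTn-R4 replicate 2, adjusted p = 0.0572 to 0.106) and Clcn1 (PBS replicate 1, PBS replicate 2, iFTn-R4 replicate 1 and iFTn-R4 replicate 2, adjusted p = 0.0546 to 0.13). Besides this, calls were lost in a fit of the 4 libraries alone for Fosl1, Tnfrsf9 and Clcn1, and with scaling by library size alone for Tnfrsf9, and in DESeq2 for Tnfrsf9.

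The 2 iFTn-R4 libraries differed from each other in a patterned way. Interferon genes were lower in replicate 1 than in replicate 2, in 36 of 39 members by a median of 0.33 on the log2 scale. Genes of respiratory complex I were lower in replicate 1 in 37 of 37 members and those of the citrate cycle in 27 of 27. Collagens were higher in replicate 1 in 20 of 22 members above 5 CPM, by a median of 0.43, class II genes in 10 of 10 by 0.51, and epicardial markers in 9 of 9 by 1.66. Epicardial markers were also higher in PBS replicate 1 than in PBS replicate 2, by a median of 1.32. With iFTn-R4 replicate 1 left out the genes that passed numbered 1202 that rose and 1363 that fell, and without replicate 2 they numbered 552 and 748.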

How the data were processed

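RNA-seq of injured mouse heart tissue was measured in 8 libraries, 2 of PBS and 2 of each nanocage. The authors deposited expected counts, FPKM and TPM per gene in 1 table for PBS and 1 for the nanocages. Per the submitters' processing notes the tools include HISAT2 2.1.0, Bowtie2 2.2.5 and RSEM 1.2.8, with the build GRCm38.p6, and whether counting used strand is not given in the sources used here. The deposited FPKM values are scaled to length and library size and gave, with the counts, each gene's effective length in genes of at least 10 counts. The deposited TPM values were used only in limma.

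The tables hold 17051 and 17788 genes, of which 16695 are in both, and 16547 had values in both tables and were used. Of these 1269 had expected counts that were not whole (tolerance 1e-09), and 16505 matched RefSeq. Counts were rounded and tested in edgeR 4.0.16 (R 4.3.3) by quasi-likelihood with TMM and filterByExpr over the 8 libraries. Each gene's spread was estimated over all 8 libraries together and drawn toward that of the other genes. The common biological coefficient of variation was 8.4%. Each library's offset was a natural spline of log2 length (4 degrees of freedom), fitted to the 12037 genes that averaged 50 counts or more. The offset removes any real change that follows length. Alternatives used DESeq2 1.42.0, limma 3.58.1, other scalings and filters, the replicate number as a block and leaving out each library. The fit was tested on simulated data. Counting floors cover counting error only.

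Named genes were the 12 largest changes each way among genes called with and without the offset, at 5 CPM or more in the higher group, with whole counts and no overlap of libraries, up to 5 per list, 24 panel genes and 6 each way called in both contrasts. Some genes that the rule names are not reported here. Acta1, Ccn2, Cd36, Cd74, Clu, Enah, H2-Aa, Hspa5, Ifit1, Isg15, Pdia6 and Tpm1 fall outside this rule and were chosen after their values were seen. Members, lists and tests were chosen with earlier results of these data known. Gene positions and promoters are RefSeq entries of GRCm38.p6, matched by gene ID.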

Additional observations from a re-analysis of the deposited data

How the results depend on the processing

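Against PBS, 873 rose and 1079 fell with the length offset and 1945 rose and 2151 fell without it, and with the 4 libraries alone 234 rose and 301 fell. Leaving out 1 library gave 183 to 1202 that rose and 318 to 1363 that fell, the ends being without PBS replicate 1, without PBS replicate 2 and, for both highest counts, without iFTn-R4 replicate 1. Limma on log2(TPM + 0.1) and log2(TPM + 1), where the median of all genes stood at 0.24 and 0.20, gave 4528 and 4503 that rose and 648 and 660 that fell. Within 1.5 times of the first counts were DESeq2 (658 rose and 833 fell), its size factors in edgeR, library size alone and both filters on low counts. Against the other nanocages, 1794 rose and 1429 fell, with 1061 to 1885 and 855 to 1508 when 1 library was left out, 2440 rose and 998 fell with library size alone, 2397 and 2375 that rose and 739 and 736 that fell in limma, and other alternatives within 1.5 times. The cause of these shifts was not tested.

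Replicate numbers are not said to pair samples. The deviations of same-numbered libraries correlated at 0.153 between PBS and iFTn-R4 across genes, and at -0.0143 to 0.125 between the other groups. With the replicate number as a block 1026 rose and 1262 fell against PBS, and 2086 rose and 2331 fell without the offset. Of 137 genes given with values the block ended no call and added 1.

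The direction turned against PBS for Fth1 (-0.17 without the offset, -0.18 with the block as well), Sod1 (-0.24 in both, -0.057 in both limma fits), Sod3 (-0.10 in both), Ftl1 (0.0071 with library size alone) and Myh6 (0.054 and 0.054 in limma, below that median). With 1 library left out the log2 fold change also changed sign for 10 genes, with ranges of Cat -0.18 to 0.47, Ccl2 -0.55 to 0.017, Col1a1 -0.068 to 0.59, Fth1 -0.033 to 0.29, Ftl1 -0.17 to 0.11, Gpx1 -0.21 to 0.097, Hmox1 -0.56 to 0.16, Il1b -0.94 to 0.011, Il6 -1.86 to 0.013 and Sod3 -0.091 to 0.21. Of the 137 genes 34 lost their call in the fit of the 4 libraries and 5 in DESeq2. Genes with stable calls were preferred among them, so these counts do not stand for all calls. Of all 873 that rose and 1079 that fell, 230 and 299 kept their call in the fit of the 4 libraries. In DESeq2 603 and 787 of them did.

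With 2 libraries a group, a group's table cannot be separated from its treatment, and genes of a few CPM rest on few counts a library.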
